A study of Mus musculus with 8 samples.

Results

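A set of 7 blood genes was followed in the brainstem (BS) of mice that overexpress human PDGFRA (hPDGFRA): the adult beta globin genes Hbb-bs and Hbb-bt, the adult alpha globin genes Hba-a1 and Hba-a2, the red cell enzyme gene Alas2, and S100a8 and S100a9, which encode the subunits of calprotectin. They were found by gene symbol and are 7 of the 24081 genes in the deposited table. All 7 passed the minimum mean of 10 normalized counts, as did 15123 genes in all. The genes were picked with their KI and control levels in these libraries already known, so those levels are given as a description, with no test. The study sequenced BS mRNA of 4 KI mice and 4 controls, labelled as C57BL/6, untreated and at postnatal day 19 (the methods give P18/P19). Per the methods, the knock-in allele was made in stem cells of another strain and the mice were then crossed to C57BL/6. The control mice carried Nestin Tv-a, the Olig2-Tv-a/Cre driver and homozygous floxed p53 (p53 fl/fl). The KI mice carried these alleles and, in addition, 1 copy of floxed hPDGFRA (hPDGFRA fl/+) in the Rosa26 locus, so that p53 was deleted in both groups and Cre acted only in cells with Olig2 activity and their progeny. The transgene follows a stop cassette that Cre removes and is then driven by the broadly active CAG promoter. The methods describe death by carbon dioxide followed by decapitation and do not mention perfusion, so whether the mice were perfused before dissection is not given. The paper reports hemorrhage in the posterior spinal cord of KI mice with paralysis, and nothing grossly abnormal in stained brain sections. Whether any of the sequenced mice had bled is not given. Nothing in the labels gives the sex, litter or dissection day of a mouse.

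Hemoglobin is a tetramer of alpha and beta globin chains that each hold a heme, and it fills the red cell. Mature mammalian red cells have no nucleus, but the young red cells called reticulocytes still carry globin mRNA, which is among the most abundant mRNA of whole blood. ALAS2 catalyzes the first step of heme synthesis in erythroid cells, whereas ALAS1 does so in other tissues. Calprotectin is a calcium- and zinc-binding heterodimer that is stored in the cytosol of neutrophils and is also made by monocytes. Blood vessels run throughout the brain, and dissected brain tissue holds whatever blood is left in them.

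The 2 globin pairs are near-identical copies, which bears on how reads could be told apart. In the GENCODE M21 annotation of GRCm38 (mm10), Hbb-bs (ENSMUSG00000052305) lies on chromosome 7 from 103826534 to 103828096 and Hbb-bt (ENSMUSG00000073940) from 103812524 to 103813996, both on the minus strand and with 3 exons. Hba-a1 (ENSMUSG00000069919) lies on chromosome 11 from 32283511 to 32284465 and Hba-a2 (ENSMUSG00000069917) from 32296489 to 32297298, both on the plus strand and with 3 exons. The deposited table places Hba-a2 from 32283674 to 32284493, overlapping Hba-a1. It repeats the values of Hbb-bs under the symbols Hbb-b1 and Hbb-b2, and those of Hbb-bt under Hbb-b2. Hbb-bs and Hbb-bt share a coding sequence of 441 bases but for the synonymous C417T, and Hba-a1 and Hba-a2 share one of 426 bases but for the synonymous C381T. Positions count from the A of the start codon, the first gene of each pair has the first base, and the stretches of coding sequence shown end at that base, in capitals.
Hbb-bs: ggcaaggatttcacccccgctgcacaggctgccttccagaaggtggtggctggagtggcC
Hbb-bt: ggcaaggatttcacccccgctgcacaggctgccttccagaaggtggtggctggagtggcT
Hba-a1: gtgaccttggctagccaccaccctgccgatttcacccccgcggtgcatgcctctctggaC
Hba-a2: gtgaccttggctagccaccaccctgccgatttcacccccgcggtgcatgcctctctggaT
The encoded chains, of 146 residues for the beta and 141 for the alpha genes, were therefore the same within a pair. Of the 75-base windows along the Hbb-bs transcript, 64.3% also occurred in that of Hbb-bt, and 62.2% of those of Hba-a1 occurred in Hba-a2. The authors' counting left out reads with more than one place of alignment, so that the copies were told apart mostly by reads over the transcript ends, and the split of reads between copies is uncertain. The read length is not given in the sources used here.

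The other 3 genes have no such copy. Alas2 (ENSMUSG00000025270) lies on chromosome X from 150547375 to 150570638 on the plus strand, with 11 exons in its main transcript, and shares exon bases with Apex2 and Mir3620 on the other strand. Reads there could not be told apart by strand and were counted for neither gene. S100a8 (ENSMUSG00000056054) and S100a9 (ENSMUSG00000056071) are neighbors on chromosome 3, from 90668978 to 90670035 on the plus strand and from 90692632 to 90695721 on the minus strand, with 3 exons each.

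Promoters are shown for 4 of the genes because the globin genes and Alas2 ordered the libraries alike and S100a9 did not. The sequences are the 250 bases before the RefSeq start site on GRCm38.p6, 5′ to 3′ on the strand of the gene: chr7:103827929-103828178 (minus strand) for Hbb-bs, chr11:32283422-32283671 (plus) for Hba-a1, chrX:150547167-150547416 (plus) for Alas2 and chr3:90695722-90695971 (minus) for S100a9. Capitals mark AGATAA and GATAAG, the overlapping letters of the GATA factor motif, the CACCC core, the CCAAT box, and the TATA letters TATAAA and CATATAA, all searched on both strands.
Hbb-bs: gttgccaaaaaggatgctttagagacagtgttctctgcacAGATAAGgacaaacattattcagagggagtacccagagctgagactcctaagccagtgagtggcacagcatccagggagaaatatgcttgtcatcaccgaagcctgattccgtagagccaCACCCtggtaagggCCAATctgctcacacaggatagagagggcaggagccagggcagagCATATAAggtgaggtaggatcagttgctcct
Hba-a1: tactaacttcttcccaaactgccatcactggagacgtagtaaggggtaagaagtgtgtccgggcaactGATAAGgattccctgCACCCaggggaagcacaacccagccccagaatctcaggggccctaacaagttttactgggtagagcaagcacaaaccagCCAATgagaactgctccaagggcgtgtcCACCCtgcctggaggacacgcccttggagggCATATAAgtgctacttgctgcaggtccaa
Alas2: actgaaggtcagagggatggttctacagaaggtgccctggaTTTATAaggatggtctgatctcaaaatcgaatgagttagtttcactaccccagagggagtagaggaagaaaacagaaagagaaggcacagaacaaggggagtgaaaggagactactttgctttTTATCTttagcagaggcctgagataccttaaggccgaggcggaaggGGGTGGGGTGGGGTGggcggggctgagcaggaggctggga
S100a9: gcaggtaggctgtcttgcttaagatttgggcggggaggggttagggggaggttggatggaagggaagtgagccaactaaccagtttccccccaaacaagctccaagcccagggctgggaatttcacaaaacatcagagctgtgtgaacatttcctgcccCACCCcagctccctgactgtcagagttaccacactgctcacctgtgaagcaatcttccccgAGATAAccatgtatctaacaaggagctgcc
GATAAG was present before all 4 globin genes and in 6.55% of 32851 RefSeq promoters of that length, whereas AGATAA was present before Hbb-bs, Alas2 and S100a9 and in 9.99% of promoters. CCAAT was found before the 4 globin genes and before 33.8% of all genes. The rarest letters, CATATAA, were found before Hbb-bs, Hba-a1 and Hba-a2 and in 2.12% of promoters. CACCC was found before 6 of the 7 genes, all but S100a8, and in 52.0% of promoters. TATAAA, in 12.4% of promoters, was found before Hbb-bt, Alas2 and S100a8. The match began at -28 from the start site in Hbb-bt and -30 in S100a8, but at -209 and on the other strand in Alas2. The alpha promoters share a run of 247 bases, so that they count as 1 sequence rather than 2. These are matches of letters and were not tested as binding sites.

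Values are read counts scaled by the authors with DESeq2 size factors, and undoing the scaling gave whole reads for 100% of them, within a tolerance of 0.01 reads. The reads so recovered summed to 24816146 to 27716846 per control and 21492789 to 24458589 per KI library, so each KI library was shallower. Pdgfra stood at 2565 to 3087 normalized counts among the controls and at 11437, 9706, 8939 and 3269 in KI replicates 1 to 4. Gt(ROSA)26Sor, the transcript of the locus with the insertion, stood at 82.9 to 93.9 and at 603, 605, 573 and 328, so that both were lowest in KI replicate 4. Ttr, a choroid plexus gene, had 44.9 normalized counts in control replicate 4, 237 in KI replicate 3 and at least 14985 elsewhere. Xist had at least 4155 in KI replicate 4 and in the controls 2 and 3, and at most 43.9 elsewhere. Slc6a5, the glycine transporter gene of brainstem neurons, was at 4952 or more in every library, and Tph2, the serotonin synthesis gene of raphe neurons, ranged from 554 to 2390.5 among the controls and was 936, 913, 79.6 and 521 in KI replicates 1 to 4. KI and control mice were compared over all genes with limma on log2(normalized count + 1), with Benjamini-Hochberg adjustment and a threshold of 0.05, and fold changes on this scale understate those of low genes. Of the 15123 genes, 3685 passed it (24.4%), 1811 higher (12.0%) and 1874 lower (12.4%) in the KI mice, a count that ranged from 888 without control replicate 2 to 5296 without KI replicate 4.

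Hbb-bs had a 1.99-fold higher mean in the KI than in the control mice. It had the most counts of the 7 genes per length of transcript, as counted without reads that fit both copies. The normalized count was 6426, 1709, 2944 and 2898 in control replicates 1 to 4 and 6389.9, 8231, 5233 and 7937 in KI replicates 1 to 4. Control replicate 1 lay above KI replicates 1 and 3, so that the groups overlapped, while the other control libraries lay below all 4 KI libraries. The means were 3494 ± 2036 and 6948 ± 1400 (SD, n = 4 each), and the log2 difference was 1.14 (standard error 0.34). In bulk tissue, more red cells and more globin mRNA per red cell cannot be told apart. Which cells the globin reads came from, red cells or cells of the tissue, was not tested. Hbb-bt, the other beta gene, stood at 1097, 286, 433 and 439 normalized counts among the controls and at 478, 1203, 764 and 1196 in the KI libraries. Here KI replicate 1 lay among the controls, close to control replicates 3 and 4, and the log2 difference was 0.78 (standard error 0.42).

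The alpha genes gave the same picture. Hba-a1 stood at 2305, 536, 796 and 869 normalized counts among the controls and at 1268, 2165, 1341 and 2243 in the KI libraries. Control replicate 1 was the highest of all 8 libraries and the other 3 controls were the lowest. Hba-a2 stood at 1474, 329, 467 and 596 among the controls and at 749, 1223, 778 and 1375 in the KI libraries, in which order control replicate 1 was again highest and the other controls lowest. The log2 differences were 0.82 (standard error 0.40) for Hba-a1 and 0.71 (standard error 0.41) for Hba-a2.

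Summed over the 4 adult globin genes, the level was 5901 ± 3707 normalized counts among the controls and 10643 ± 2495 in the KI mice (SD, n = 4 each). The sum was lowest in control replicate 2, at 2859.9, and highest in KI replicate 2, at 12822, with control replicate 1 at 11303. Globin reads as counted, without those that fit both copies of a pair, made up a small share of all recovered reads. This share was 0.0118% to 0.0457% among the controls and 0.0337% to 0.0532% in the KI libraries. The exact (Clopper-Pearson) 95% interval of each of these shares was narrow, for example 0.0114% to 0.0122% for control replicate 2. The intervals in this report cover counting error only, since PCR copies are not independent molecules, and the spread within the control group was many times wider. Without control replicate 1, the log2 difference of the sum went from 1.01 to 1.38.

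Alas2, the erythroid gene of heme synthesis, ordered the libraries much as the globin genes did. It stood at 479, 147, 219 and 205 normalized counts among the controls and at 353, 438, 292 and 569 in the KI libraries. Control replicate 1 exceeded all KI libraries but replicate 4, and the log2 difference was 0.75 (standard error 0.34). Per 1000 adult globin counts there were 42.4, 51.3, 47.2 and 42.7 counts of Alas2 among the controls and 39.7, 34.2, 35.9 and 44.6 in the KI libraries. This ratio ran from 34.2 to 51.3 over the 8 libraries, whereas the globin sum varied by 4.48-fold.

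The calprotectin genes had larger log2 differences and ordered the libraries otherwise. S100a8 stood at 11.6, 14.1, 5.47 and 10.7 normalized counts among the controls and at 43.3, 144, 41.4 and 17.2 in the KI libraries, of which KI replicate 2 was highest and KI replicate 4 lowest. S100a9 stood at 20.5, 24.4, 15.5 and 27.3 among the controls and at 62.1, 179, 57.9 and 35.6 in the KI libraries, in the same order within the KI group. For both genes every KI library lay above every control library. The means were 10.5 ± 3.63 and 61.5 ± 56.2 for S100a8 and 21.9 ± 5.13 and 83.5 ± 64.4 for S100a9 (SD, n = 4 each), and the log2 differences were 2.11 (standard error 0.56) and 1.64 (standard error 0.43). These genes had few reads: 6 to 15 per control and 15 to 129 per KI library for S100a8. Without KI replicate 2, the difference of the summed calprotectin genes went from 1.84 to 1.35 on the log2 scale.

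Of the 7 genes, 3 were called in the fit across all genes (Hbb-bs, S100a8 and S100a9), beside 24.4% of all genes tested, and 2 had all KI libraries above all controls, beside 12.7% of all genes tested. Since the genes were chosen on this contrast, nothing is read from these counts. Their median log2 difference was 0.82, and that of all 15123 genes -0.00. Scaled by the length of the main transcript, the KI means ran from 11063 normalized counts per kb for Hbb-bs to 2510 for Hba-a1, 1861 for Hba-a2, 1295 for Hbb-bt, 203 for Alas2, 163 for S100a9 and 126 for S100a8. In the control mice the same scale gave 5564, 1612, 1293, 802, 129, 42.9 and 21.6, in that order. Reads that fit both copies of a globin pair were not counted. This scale therefore understates the globin genes against Alas2, S100a8 and S100a9, by an amount that is not known. The order among the globin genes is uncertain for the same reason, since the loss of reads can differ between them. The ranges of mean ± SD of Hba-a1, Hba-a2 and Hbb-bt overlapped in both groups. So did those of Alas2, S100a9 and S100a8 in the KI mice and those of Hbb-bs and Hba-a1 in the control mice. This spread is between libraries, and genes of 1 library were measured together, so the overlap does not show that neighbors were alike. Hbb-bs, with the shorter transcript (628 against 699 bases), had more counts than Hba-a1 in every control library, for example 1709 against 536 normalized counts in control replicate 2. Both counts lack reads that fit both copies, so how far the mRNA levels differed is not known.

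**Figure D1:**
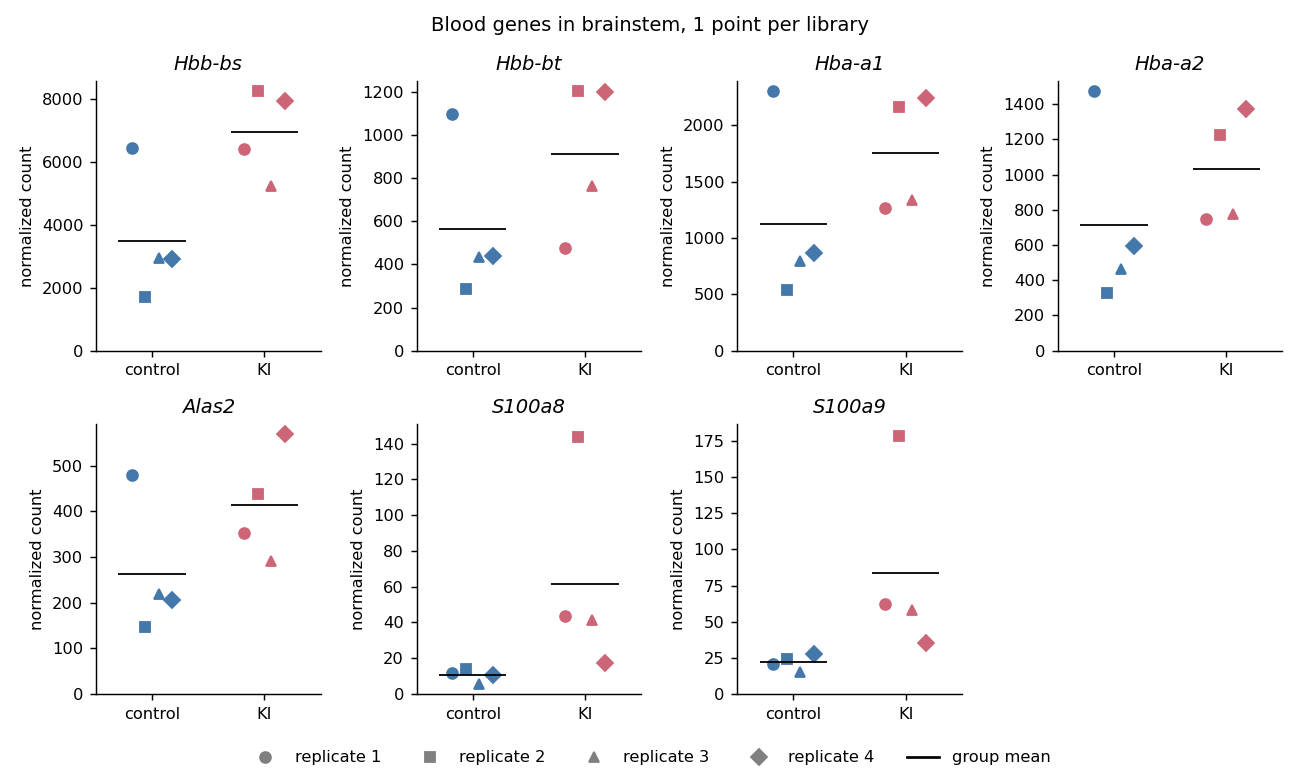
Normalized counts (y axis, linear and from 0) of the 7 blood genes in each of the 4 control and 4 KI libraries, with the marker shape giving the replicate number and the line the group mean. Control replicate 1 sits among the KI libraries for Hbb-bs, Hbb-bt and Alas2 and above them for Hba-a1 and Hba-a2. KI replicate 2 stands highest for S100a8 and S100a9.

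The calprotectin sum did not follow the globin sum from library to library. In control replicate 1 the globin sum was 11303 and the calprotectin sum 32.1, within the control range of 21.0 to 38.5. In KI replicate 4 the globin sum was 12751 and the calprotectin sum 52.8, the lowest of the KI group, whereas KI replicate 2 had a like globin sum (12822) and a calprotectin sum of 322. Per 1000 globin counts there were 2.84, 13.5, 4.52 and 7.93 calprotectin counts among the controls and 11.9, 25.1, 12.2 and 4.14 in the KI libraries. On this ratio the groups overlapped, with 1 KI library above the highest control.

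**Figure D2:**
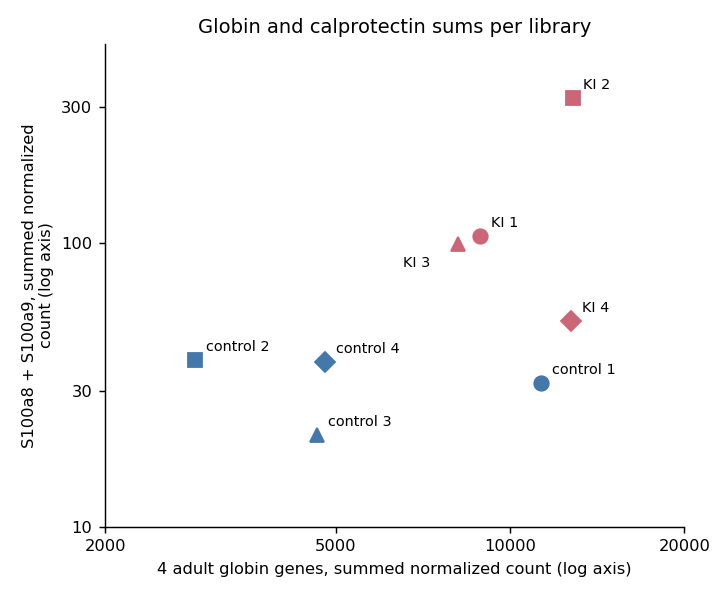
Summed normalized count of the 4 adult globin genes (x axis, log scale) against that of S100a8 and S100a9 (y axis, log scale), with 1 point per library. KI replicates 2 and 4 and control replicate 1 lie together on the globin axis, at 11303 to 12822, and spread from 32.1 to 322 on the calprotectin axis.

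Shares within a library do not depend on its depth or scaling, but the globin shares leave out reads that fit both copies of a pair. Hbb-bt made up 14.6%, 14.3%, 12.8% and 13.2% of the beta globin reads among the controls and 6.96%, 12.7%, 12.7% and 13.1% in the KI libraries. KI replicate 1 thus stood apart, with an exact 95% interval of 6.37% to 7.58% (485 of 6971 reads), while the intervals of the other 7 libraries lay between 11.8% and 15.9%. The alpha genes showed no such library: Hba-a2 made up 36.1% to 40.7% of the alpha reads over all 8. Alpha reads made up 33.4%, 30.2%, 27.2% and 30.5% of the adult globin reads among the controls and 22.7%, 26.4%, 26.1% and 28.4% in the KI libraries. The lowest was again KI replicate 1, and KI replicate 4 lay within the control range. S100a8 made up 26.1% to 36.6% of the calprotectin reads among the controls and 32.6% to 44.6% in the KI libraries, and the exact 95% intervals of all 4 control libraries overlapped those of the 4 KI libraries.

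**Figure D3:**
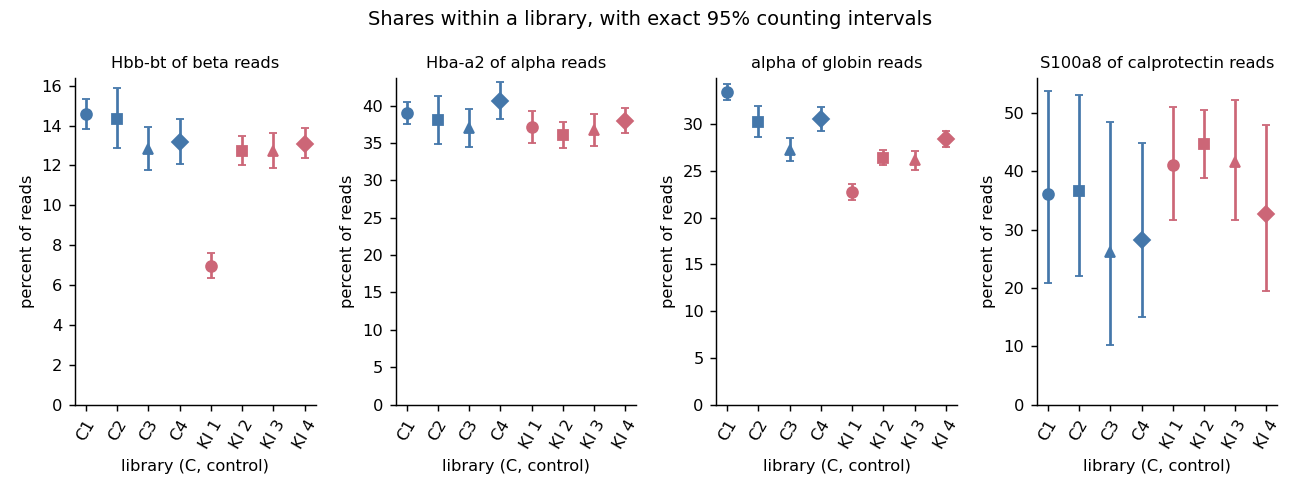
Share of reads within a library (y axis, percent from 0) of Hbb-bt among the beta, Hba-a2 among the alpha, alpha among all adult globin and S100a8 among the calprotectin reads, with exact 95% counting intervals as bars. KI replicate 1 sits at 6.96% for Hbb-bt and the other libraries at 12.7% to 14.6%.

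Other red cell genes were present at low levels. Of 20 genes for red cell membrane proteins, erythroid transcription factors and enzymes, 19 were found and 7 passed the minimum mean. None of the 7 passed the threshold in limma (1 at an unadjusted p under 0.05, 0 called by edgeR and 0 by DESeq2), and their median log2 difference was 0.38. Slc4a1, the anion exchanger of the red cell membrane, stood at 33.9, 20.7, 10.0 and 21.5 normalized counts among the controls and at 29.6, 79.2, 26.9 and 51.6 in the KI libraries, with a log2 difference of 1.07 (adjusted p = 0.0965 from limma). Slc4a1 was thus highest in KI replicates 2 and 4, where the globin sum was also highest. The sum of the list without Slc14a1, a urea transporter gene that is expressed in the brain as well and made up most of the counts, was 128 to 158 among the controls and 148 to 259 in the KI libraries. The nuclear factors of erythroid precursors were low. Klf1 stood at 1.82 to 6.84 normalized counts among the controls and at 2.30 to 7.81 in the KI libraries. Hemgn stood at 0 to 8.02 and at 0 to 4.46. Gata1 had at most 1.12 normalized counts in any library, and Gfi1b had 0 reads in all 8, which allows up to 3 reads in each. Embryonic and minor globin genes (6 found) summed to 4.59 to 18.6 normalized counts per library, and none passed the minimum mean. Transcripts of reticulocytes that the brain shares were mostly on the side of neither group: Bnip3l, a mitophagy receptor, rose and Ube2o, a ubiquitin ligase, fell, out of 12 (16.7%, beside 24.4% of all genes). Bnip3l stood at 1901 to 2273 among the controls and at 2788 to 3327 in the KI libraries (log2 difference 0.50, adjusted p = 0.00912 from limma), and Ube2o at 4480.4 to 4865 and 3377 to 3948 (-0.34, adjusted p = 0.0117).

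Heme is also made in every other cell, with the enzymes after the first step shared between tissues. Of 10 genes of heme synthesis other than Alas2, 2 fell and none rose (20.0% called, beside 24.4% of all genes), and the median log2 difference was -0.12. Cpox, coproporphyrinogen oxidase, stood at 2607, 2354, 2765 and 2114 normalized counts among the controls and at 1128, 989.6, 730 and 2298 in the KI libraries. KI replicate 4 lay within the control range, and the log2 difference was -1.06 (adjusted p = 0.0301 from limma). Alad, the second enzyme of the pathway, stood at 496 to 528 among the controls and 374 to 454 in the KI libraries (log2 difference -0.29, adjusted p = 0.0291 from limma). Alas1, the enzyme that takes the place of ALAS2 in other tissues, had a log2 difference of -0.11 and did not pass the threshold (adjusted p = 0.198 from limma). The calls of Cpox and Alad were lost in 10 and 8 of 17 alternatives.

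Heme from red cells is broken down by heme oxygenase and biliverdin reductase, and its iron is stored or exported. Of 18 genes of heme breakdown and iron handling above the minimum, 5 rose and 3 fell (44.4%, beside 24.4%), and the median log2 difference was 0.00. Blvra and Blvrb, the biliverdin reductases, Cd163, the hemoglobin-haptoglobin scavenger receptor of macrophages, Tfrc, the transferrin receptor, and Flvcr1, a heme exporter, rose. Aco1, the iron regulatory protein IRP1, Slc48a1, a heme transporter, and Ncoa4, the ferritinophagy receptor, fell. Of these, Aco1 had the smallest p: it stood at 1765 to 1856 normalized counts among the controls and at 1307 to 1610 in the KI libraries (log2 difference -0.38, adjusted p = 0.0122 from limma). Cd163 stood at 105, 81.8, 61.1 and 99.6 among the controls and at 168, 211, 220 and 93.0 in the KI libraries, KI replicate 4 lying within the control range (log2 difference 0.94, adjusted p = 0.0402 from limma). Hmox1, the inducible heme oxygenase, was at 147 to 198 among the controls and at 923, 280, 188 and 165 in the KI libraries, with a log2 difference of 0.78 (adjusted p = 0.245 from limma). The count of 8 ranged from 1 to 11 with 1 library left out.

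The neutrophil list had no call. Of its 25 genes, all were found and 7 passed the minimum mean. None of the 7 passed the threshold in limma (0 at an unadjusted p under 0.05, 0 called by edgeR and 0 by DESeq2), and their median log2 difference was 0.23. The summed list was 493 to 594 normalized counts among the controls and 1002, 733, 687 and 466 in KI replicates 1 to 4, so that it was highest in KI replicate 1, whereas S100a8 and S100a9 were highest in KI replicate 2. The granule genes Ngp, Camp and Ltf, which make up a small part of this sum, were highest in KI replicate 2. Ngp, neutrophilic granule protein, stood at 10.7 to 15.2 normalized counts among the controls and at 8.87, 37.9, 17.6 and 6.89 in the KI libraries. Camp, the cathelicidin, stood at 2.67 to 9.40 and at 7.88, 33.5, 10.3 and 4.59. Ltf, lactoferrin, reached 24.5 in KI replicate 2 and 1.82 to 11.3 elsewhere. Mpo, myeloperoxidase, was at 0 to 4.46 among the controls and at 17.7, 13.4, 17.6 and 3.44 in the KI libraries, and Chil3 at 0 to 1.95 and at 15.8, 14.5, 6.20 and 2.30; both were below the minimum mean. Lcn2, lipocalin 2, which glia and endothelium can make as well, was at 9.77 to 22.6 among the controls and at 219, 42.4, 16.5 and 8.03 in the KI libraries, where the highest was KI replicate 1 (adjusted p = 0.304 from limma). Of other genes on the list, Ly6g was at 0 to 1.12 normalized counts. Ctsg had 0 reads in all 8 libraries, which allows up to 3 reads in each. The neutrophil genes named here were chosen after their values were seen.

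**Figure D4:**
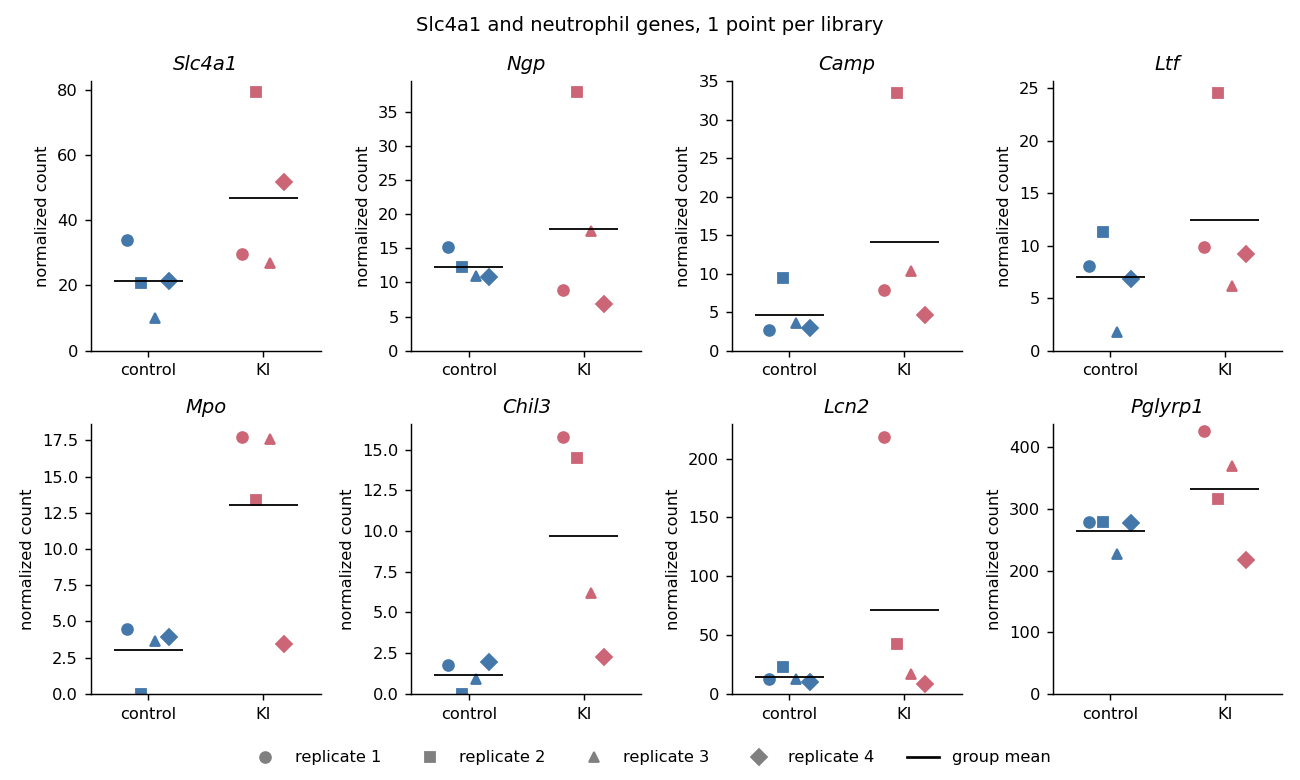
Normalized counts (y axis, linear and from 0) of the red cell gene Slc4a1 and 7 neutrophil genes in each library, with the marker shape giving the replicate number and the line the group mean. Slc4a1, Ngp, Camp and Ltf are highest in KI replicate 2, and Lcn2 and Pglyrp1 are highest in KI replicate 1.

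Other S100 genes and the receptors of calprotectin gave 1 call of 12 (8.33%, beside 24.4% of all genes): S100a1 rose, with 1043 to 1353 normalized counts among the controls and 1417 to 1803 in the KI libraries (log2 difference 0.47, adjusted p = 0.0157 from limma). Tlr4, a receptor of calprotectin, had a log2 difference of 0.19 and Ager, which encodes RAGE, one of 0.18, and neither passed the threshold. DESeq2 also called S100b, an astrocyte gene, which had a log2 difference of 0.47 and an adjusted p of 0.0774 in limma. Among lists for other blood cells, no gene of 3 monocyte, 7 platelet or 1 lymphocyte gene above the minimum passed it (2, 1 and 0 at an unadjusted p under 0.05; 1, 1 and 0 called by DESeq2; 0, 0 and 0 by edgeR). The summed lymphocyte list was highest in KI replicate 2, at 102, and 40.1 to 72.3 elsewhere. The summed monocyte list was 1192 to 2075 normalized counts among the controls and 988 to 1405 in the KI libraries. The median log2 difference of its 3 genes above the minimum was -0.46, the opposite sign to S100a8 and S100a9. Of its 12 genes, 9 lay below the minimum. Within each group the sum was lowest in the library low in Ttr, control replicate 4 and KI replicate 3. Whether the sum follows monocytes was not tested. The 3 globins of nervous and other tissue, Ngb, Cygb and Mb, gave no call either (0 at an unadjusted p under 0.05, 0 called by edgeR and 0 by DESeq2).

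Summed markers of endothelium and microglia did not order the libraries as the globin genes did. Of 20 endothelial genes, Kdr and Tie1, receptors of vascular growth factors, fell and none rose (10.0%, beside 24.4% of all genes). The summed endothelial list was 20285 to 23892 normalized counts in the control, highest in control replicate 1, and 22803 to 25724 in KI replicates 1 to 3, but 18594 in KI replicate 4, whose globin sum was 12751. Of 14 mural cell genes Cspg4, which oligodendrocyte progenitors express as well, fell (7.14%), of 15 microglia genes Sall1 fell (6.67%), and of 9 border macrophage genes Cd163 rose (11.1%), each share beside 24.4% of all genes. The summed microglia list ranged from 9738 to 11958 among the controls and from 9935 to 10874 in the KI libraries. Choroid plexus genes, which have a blood supply of their own, summed to 64375 to 103387 in control replicates 1 to 3 but to only 502 in replicate 4. In the KI group they summed to 15856 to 36085, but to 918 in replicate 3. Without control replicate 4 and KI replicate 3, the log2 differences of Hbb-bs and S100a9 were 1.23 and 1.84. The part of left-over blood, of cells of the tissue, of depth and of dissection in the levels of the 7 genes was not tested.

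**Figure D5:**
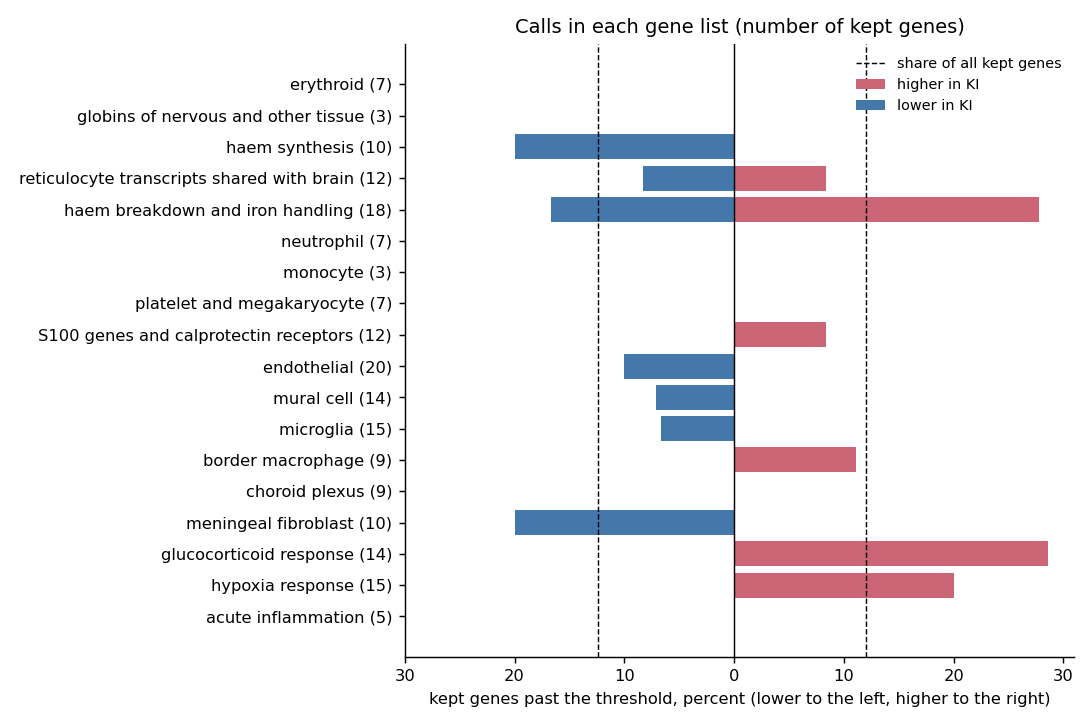
Share of the genes above the minimum in each list (x axis, percent) that passed the limma threshold higher (right) or lower (left) in the KI mice, with the number of such genes in brackets and lists with fewer than 3 left out. Dashed lines mark the share of all genes, 12.0% higher and 12.4% lower. Erythroid, neutrophil, monocyte and platelet lists have no call.

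Genes were also ranked by how alike they were to Hbb-bs and S100a9, by Pearson's r of log2(normalized count + 1) over the 8 libraries, predicted genes left out. These r share libraries, scaling and the difference between groups and are descriptions. For Hbb-bs, r was 0.96 with Alas2, 0.95 with Hba-a1, 0.93 with Hba-a2 and 0.89 with Hbb-bt, and 4, 6, 19 and 60 of the 15123 genes had a higher r, Hbb-bs itself included. The nearest genes outside the 7 were Fcer1g, an Fc receptor subunit of microglia and other myeloid cells (0.97), Fam96a (0.97), Rcan2 (0.96), Stard10 (0.96), Lsm3 (0.95), Hdhd3 (0.95), Ube2l6 (0.95) and Nt5c3b (0.94). Fcer1g stood at 127 normalized counts in control replicate 1, 94.0 to 100.6 in the other controls and 121 to 137 in the KI libraries, as in the globin genes. Ube2l6 had the same shape, with 143 in control replicate 1, 71.5 to 82.1 in the other controls and 113 to 132 in the KI libraries.

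For S100a9, r was 0.99 with S100a8 and 0.60 with Hbb-bs, and 1 and 3382 genes had a higher r, S100a9 itself included. The nearest genes outside the 7 were Bloc1s2 (0.98), Cstf3 (0.97), Eif1b (0.97), Rabggtb (0.97), Nop10 (0.97), Lsm1 (0.96), Tmsb10 (0.96) and Lgr6 (0.96). None of these 8 is on the neutrophil list, but only 7 of its 25 genes passed the minimum mean and could be ranked. They had all KI libraries above all controls, with KI replicate 2 highest, for example Bloc1s2 at 267 to 311 normalized counts among the controls and at 386, 455, 383 and 332 in the KI libraries.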

How the data were processed

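RNA-seq libraries of BS from 4 KI and 4 control mice were grouped by the sample labels. Per the submitters' processing notes and the methods, the authors used STAR 2.7 to align paired-end reads to mm10, counted reads per gene without strand in HTSeq and scaled the counts with DESeq2 size factors. The deposited signal values are these normalized counts, and whole reads were recovered from 100% of values. The table holds 24709 lines, of which 628 repeat a gene and were dropped. The authors' own columns of group means, fold changes, Wald statistics and p-values were not used.

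Genes under a mean of 10 normalized counts were left out. limma 3.58.1 (R 4.3.3) compared the groups on log2 values after adding a pseudocount of 1, with a variance trend and Benjamini-Hochberg adjustment at 0.05. Nothing says that mice of a group came from separate litters, and p-values measure the spread between these libraries. Shares have exact (Clopper-Pearson) 95% intervals, for counting error only. The 7 genes and the 20 gene lists (282 entries, 276 found, synonyms taken from RefSeq) were chosen with earlier results of these data known. Of each list, the 3 genes past the threshold with the smallest p are named, and of Hbb-bs and S100a9 the 8 genes most alike. Other list genes, called or not, were named after their values were seen. Alternatives were DESeq2 1.42.0 and edgeR 4.0.16 on the recovered reads, TMM normalization, scaling to all reads of a library, no filter on low values, a pseudocount of 0.1 or 10, a block for the replicate number, a covariate for log2 Xist, and libraries left out. Sequences came from RefSeq (GRCm38.p6; all 7 genes matched) and GENCODE M21.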

Additional observations from a re-analysis of the deposited data

Results flagged for a closer look

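In each group of 4 libraries, the gap between the highest or lowest library and its nearest neighbor was set against the range of the group, for the 7 genes, their sums and shares and 8 other named genes and 2 list sums. This gave 54 groups, of which 5 stood apart. Chance sets apart about 1 in 20 groups of unselected values, a rate that does not hold here, because Camp, Lcn2 and Hmox1 were named after their values were seen. The share of Hbb-bt among the beta globin reads was 6.96% in KI replicate 1, against 12.7% to 13.1% in the other KI libraries, a gap of 0.94 of the range. Hmox1 stood at 923 normalized counts in the same library, against 165 to 280 in the other KI libraries, and Lcn2 at 219, against 8.03 to 42.4. The cathelicidin gene Camp stood at 9.40 in control replicate 2, against 2.67 to 3.65 in the other controls. The summed erythroid list, most of it Slc14a1, stood at 634 in KI replicate 3, against 1028 to 1099 in the other KI libraries. The cause of these differences was not tested.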

How the results depend on the processing

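The log2 differences of the 7 genes and of both sums stayed positive and moved by less than the spread between replicates under all 13 alternatives run for them. With 1 library left out, Hbb-bs ranged from 0.85 to 1.48, Hbb-bt from 0.52 to 1.17, Hba-a1 from 0.54 to 1.24, Hba-a2 from 0.42 to 1.14, Alas2 from 0.52 to 1.09, the globin sum from 0.72 to 1.38, S100a8 from 1.57 to 2.56 and S100a9 from 1.19 to 1.96. For these globin genes and Alas2 the lowest value was without control replicate 2 and the highest without control replicate 1. The differences in shares kept their sign with each library left out, but that of Hbb-bt among beta reads went from -2.34 to -0.87 percentage points without KI replicate 1. The count of 3685 called genes was 2210 with log2 Xist as a covariate, 1836 without both libraries low in Ttr and 888 to 5296 with 1 library left out (2317, 888 and 1872 without control replicates 1, 2 and 3, and 2200, 1001 and 2279 without KI replicates 1, 2 and 3). It was 4409 with DESeq2 and 3627 with edgeR. With the replicate number as a block it was 0 in limma (5087 at an unadjusted p under 0.05). Same-numbered libraries did not deviate together (r of 0.26, -0.12, -0.46 and -0.36), so no pairing by number was seen. Such r cannot tell whether libraries shared a litter or batch. The erythroid and neutrophil lists, with 0 calls, had 1 each without the filter on low values (Car1 and Chil3). The erythroid list had 1 without both libraries low in Ttr (Slc14a1), and with 1 library left out it had 0 to 1 (Slc14a1, without KI replicate 3). The neutrophil list had 0 to 1 with 1 library left out (Pglyrp1, without KI replicate 4). Of 21 named list genes, calls held in 238 of 357 alternatives, were lost in 119, and no direction reversed. Calls rest on few reads for S100a8, and the cause of these shifts was not tested.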

Other observations

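Among 14 genes of the glucocorticoid response, 4 rose in the KI mice and none fell (28.6% called, beside 24.4% of all genes), and the median log2 difference was 0.49. They were Mt2 and Mt1, metallothioneins that bind zinc, Cdkn1a, the cell cycle inhibitor p21, and Tsc22d3, an anti-inflammatory leucine zipper gene. Mt2 stood at 3103 to 3879 normalized counts among the controls and at 12744, 8126, 10211 and 4736 in KI replicates 1 to 4 (log2 difference 1.32, adjusted p = 0.0122 from limma). The count of 4 was 1 to 8 with 1 library left out (2, 1 and 2 without control replicates 1, 2 and 3, and 2, 1, 2 and 8 without KI replicates 1 to 4), and 7 with DESeq2. Mt2 was lowest of the KI libraries in replicate 4, as were S100a8 and S100a9. Of 15 genes of the hypoxia response, Bnip3, Ankrd37 and Egln1 rose and none fell (20.0%, beside 24.4% of all genes), but the calls of Egln1 and Ankrd37 were lost in 11 and 9 of 17 alternatives. Bnip3, a mitophagy receptor, stood at 1732 to 1991 among the controls and 2479 to 3018 in the KI libraries (log2 difference 0.62, adjusted p = 0.00748 from limma). Of 10 meningeal fibroblast genes, Col1a1 and Lum, a collagen and a proteoglycan, fell (20.0%, beside 24.4% of all genes), with log2 differences of -0.79 and -1.14 (adjusted p = 0.0294 and 0.0402 from limma), and their calls were lost in 8 and 10 of 17 alternatives. None of 5 acute inflammation genes above the minimum passed the threshold (0 at an unadjusted p under 0.05, 0 called by edgeR and 0 by DESeq2). The summed list of 16 genes was 1687 to 2063 normalized counts among the controls. It was 1887, 1965, 2122 and 1635 in KI replicates 1 to 4, so KI replicate 1 lay within the control range. Ccl2 and Socs3, named after their values were seen, were highest in KI replicate 1, at 54.2 and 84.7, against at most 10.0 and 32.4 elsewhere.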
